A study of Mus musculus with 6 samples.

Results

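The cytotoxic granule genes described here are 10 mouse genes taken by symbol from the gene count table: the granzymes Gzma, Gzmb, Gzmc, Gzmk and Gzmm, the pore-forming protein gene Prf1, and Nkg7, Srgn, Ctsw and Serpinb9. All 10 were among the 57010 gene identifiers of the table, and all 10 had enough reads to be tested. RNA sequencing compared 3 WT libraries, from C57BL/6 MondoAfl/fl mice (both alleles floxed), with 3 KO libraries, from MondoAfl/flCD4cre mice, in which Cre under CD4 control acts from T cell development onward. MondoA is the glucose-responsive transcription factor encoded by Mlxip. In both groups the mice were 8 weeks old, and naive CD8 T cells of their spleen and lymph nodes were stimulated after sorting with anti-CD3/CD28 for 24 hours, so the floxed alleles and the stimulation were common to all libraries. The comparison asks which granule transcripts differ with MondoA deletion in activated CD8 T cells. By the genotypes in the protocol text CD4cre was carried by KO alone, although the sample titles of both groups contain the word cre, and on that reading Cre and MondoA loss cannot be told apart.

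A cytotoxic T cell kills by releasing granules at its contact with a target cell. Perforin opens the target membrane, granzymes are serine proteases that pass through and cleave proteins inside, and serglycin, a proteoglycan, holds both in the granule core. In CD8 T cells, granzyme B is induced strongly by stimulation of naive cells, whereas granzymes A and K are known chiefly from effector and memory cells.

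Libraries held from 26150420 (WT 3) to 34447230 (KO 3) counted reads. Levels are given as CPM, read counts relative to library size after TMM scaling between libraries, and the labels number the replicates without saying that each was its own mouse. Mlxip was 121 to 142 CPM in the WT libraries and 79.5 to 92.6 CPM in KO, over the whole gene. Its targets Txnip and Arrdc4 were the only 2 of 16439 tested genes with an adjusted p under 0.05 (edgeR quasi-likelihood test, Benjamini-Hochberg), 0.0122% of those tested, and both were lower in KO. WT 3 and KO 2 came from female mice by Xist and Y-linked reads, and the other 4 libraries from males, so each group held at least 2 mice, and the p-values measure the spread among these 6 libraries, some of it possibly technical. The CD8 T cell label was matched by Cd8a at 510 ± 64.8 CPM (WT) and 573 ± 98.2 CPM (KO; SD, n = 3 each), against Cd4 at 3.71 ± 0.982 and 1.80 ± 0.701 CPM.

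Gzma and Gzmk stood lower in KO on average but varied several-fold among the WT libraries, whereas Gzmb, the most abundant granzyme, differed little between the groups. Gzmc had a higher mean in KO and also varied among the WT libraries, and Serpinb9 and Ctsw had lower means in KO, by less than Gzma and Gzmk. The upstream sequences of Gzma, Gzmk and Gzmb are shown because these genes carry that contrast: Gzma and Gzmk are neighbours whose starts lie 80.0 kb apart on chromosome 13, and Gzmb lies on chromosome 14. Each runs 5′ to 3′ over the 250 bases before the RefSeq start on GRCm38.p6, all 3 on the minus strand, and capitals mark matches to the motifs searched. The Gzma window is chr13:113100982-113101231, the Gzmk window chr13:113180966-113181215 and the Gzmb window chr14:56262335-56262584. None of the 3 held an annotated GENCODE M21 exon. The Gzma and Gzmb windows touched no annotated gene, and the Gzmk window lay in an intron of a longer Gzmk transcript.
Gzma: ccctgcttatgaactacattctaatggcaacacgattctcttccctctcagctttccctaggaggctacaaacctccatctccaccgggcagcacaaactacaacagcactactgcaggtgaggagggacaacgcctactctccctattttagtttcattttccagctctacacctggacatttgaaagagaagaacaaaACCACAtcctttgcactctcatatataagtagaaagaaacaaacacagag
Gzmk: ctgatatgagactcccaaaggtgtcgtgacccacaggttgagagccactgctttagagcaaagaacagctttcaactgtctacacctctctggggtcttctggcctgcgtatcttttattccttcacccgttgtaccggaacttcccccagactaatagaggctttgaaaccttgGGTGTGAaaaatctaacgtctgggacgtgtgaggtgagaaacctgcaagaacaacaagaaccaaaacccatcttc
Gzmb: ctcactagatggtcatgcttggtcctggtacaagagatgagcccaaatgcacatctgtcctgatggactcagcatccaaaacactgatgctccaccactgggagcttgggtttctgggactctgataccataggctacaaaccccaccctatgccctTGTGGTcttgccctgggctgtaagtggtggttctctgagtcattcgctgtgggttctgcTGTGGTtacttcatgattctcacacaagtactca

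Motifs were searched on both strands, as CACGTG (the E-box, core of the element bound by MondoA with MLX), TGTGGT (RUNX core) and GGTGTGA (one part of a T-box site), which do not overlap one another in these windows. Gzma held 1 RUNX core, read on the opposite strand 50 bases before the start. Gzmb held 2 RUNX cores, at 93 and 34 bases, and Gzmk 1 T-box motif at 75 bases. The RefSeq table had 11 start windows for 9 of the 10 genes, and Ctsw was not matched. An E-box stood in 1 of the 11, the second start of Gzmm at 9 bases, against 6.02% of all 32851 promoter windows of this length. Of the MondoA targets Txnip and Arrdc4, the same search gave an E-box only for Arrdc4, at 193 bases. A RUNX core stood in 7 of the 11 windows, against 14% of all, and a T-box motif in 3 of the 11, against 3.33% of all. These are letter matches only.

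Gzma (ENSMUSG00000023132), a tryptase-like granzyme, was 17.3, 10.1 and 61.1 CPM in WT 1 to 3 and 5.88, 7.14 and 9.21 CPM in KO 1 to 3. Every KO library was under every WT library, as held for 8.65% of the genes tested, but WT 3 alone stood far above the other libraries and WT 2 was only just above KO 3. The means were 29.5 ± 27.6 CPM (WT) and 7.41 ± 1.68 CPM (KO; SD, n = 3 each), which gave a log2 fold change of -1.98 ± 0.541 (standard error). By the edgeR quasi-likelihood test the unadjusted p was 0.00423 and the Benjamini-Hochberg adjusted p 0.341, so Gzma did not pass. In reads, WT 3 held 1658 against 604 and 324 in the other WT libraries, although it was the smallest library. Gzma made up 15.7% of the summed Gzma and Gzmb reads in WT 3, and from 1.94% to 5.91% in the other 5 libraries.

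Without WT 3 the Gzma log2 fold change was -0.88, with an edgeR Benjamini-Hochberg adjusted p of 0.585, within a range of 0.112 to 0.847 over the 6 single omissions. The 5 other single omissions gave from -2.39 to -1.84. Among the 4 male libraries the means were 13.7 CPM in WT and 7.55 CPM in KO, a ratio of 0.552. Between the female libraries the values were 61.1 CPM in WT 3 and 7.14 CPM in KO 2, a ratio of 0.117. The direction was the same among the male libraries and in the female pair, and its size rested on WT 3. The female pair is 1 library of each group and includes WT 3, so sex and that library cannot be told apart. In bulk RNA, fewer cells making a transcript and less transcript per cell cannot be told apart.

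Gzmk (ENSMUSG00000042385), also a tryptase-like granzyme, was 16.0, 4.10 and 19.4 CPM in WT 1 to 3 and 1.96, 2.20 and 8.48 CPM in KO 1 to 3. The groups overlapped: KO 3 stood above WT 2, and the order of libraries was not that of genotype. The means were 13.2 ± 8.03 CPM (WT) and 4.21 ± 3.70 CPM (KO; SD, n = 3 each), which gave a log2 fold change of -1.63 ± 0.611 (standard error). The edgeR quasi-likelihood test gave an unadjusted p of 0.0231 and a Benjamini-Hochberg adjusted p of 0.396. It was -1.25 without WT 3 and -2.65 without KO 3, so that here a KO library moved the value as well. The ratio of KO to WT was 0.520 in male libraries and 0.113 in the female pair.

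The spread of these 2 genes among WT libraries was among the widest measured. On the log2 scale the SD over the 3 WT libraries was 1.33 for Gzma and 1.21 for Gzmk, larger than in 99.9% of the 9866 genes averaging 5 CPM or more, for either gene. Over the KO libraries it was 0.322 for Gzma and 1.16 for Gzmk, larger than in 92.0% and 99.9% of those genes. The highest WT library exceeded the lowest 6.08-fold for Gzma and 4.73-fold for Gzmk, against 1.19-fold for Gzmb. Gzmc came next among the 10 genes at 2.36-fold, with a log2 SD over the WT libraries of 0.651, larger than in 99.3% of those genes, and over the KO libraries of 0.359, larger than in 94.4%.

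**Figure D1:**
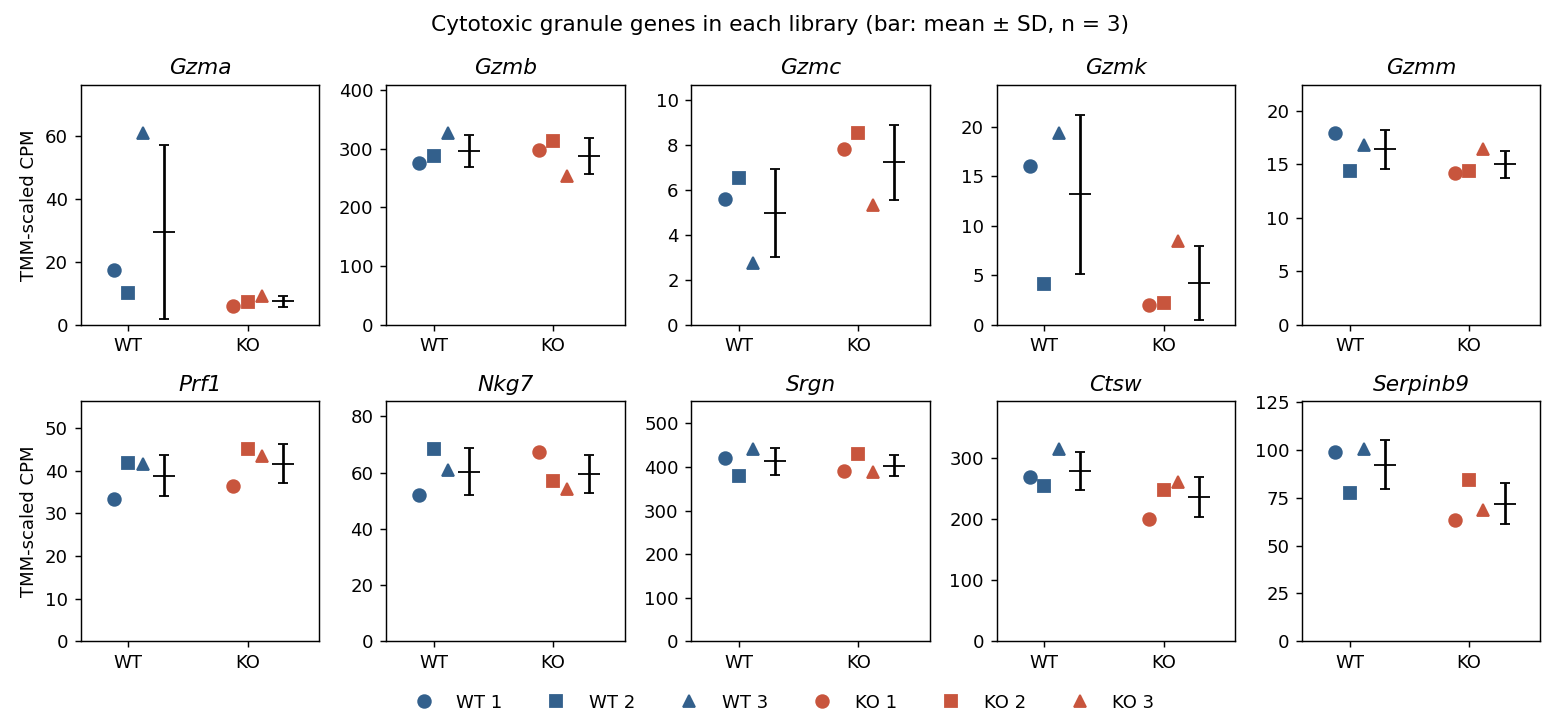
TMM-scaled CPM of each of the 10 cytotoxic granule genes in the 3 WT and 3 KO libraries, each panel with its own axis from 0; points are libraries and the bar is the mean ± SD (n = 3). Gzma stands at 61.1 CPM in WT 3 and at no more than 17.3 CPM in any other library, while Gzmb, Prf1, Nkg7 and Srgn overlap between the groups.

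Gzmb (ENSMUSG00000015437), which cleaves after aspartate and activates caspases in the target, was 275, 287 and 327 CPM in WT 1 to 3 and 297, 313 and 254 CPM in KO 1 to 3. The highest library was WT and the lowest KO, with the other 4 mixed. Its log2 fold change was -0.042 with a 95% interval from -0.26 to 0.18 (edgeR, adjusted p = 0.900 by Benjamini-Hochberg). Gzmb thus differed between the groups by less than its spread among libraries.

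Gzmc (ENSMUSG00000079186), which lies 27.7 kb from Gzmb in the same granzyme cluster, was 5.61, 6.52 and 2.77 CPM in WT 1 to 3 and 7.81, 8.55 and 5.32 CPM in KO 1 to 3. It was the only tested granzyme with a higher mean in KO, by 0.53 ± 0.296 (standard error) on the log2 scale, and did not pass (edgeR adjusted p = 0.534, Benjamini-Hochberg). WT 3, where Gzma was highest, held the least Gzmc, and without WT 3 the log2 fold change was 0.25. Of the 845 distinct stretches of 50 bases in its transcripts, 35 also occur in Gzmd, Gzme or Gzmg, so its counts could include or lose reads of those copies. The neighbours Gzmd, Gzme, Gzmg and Gzmn had 0 reads in all 6 libraries, and Gzmf had 2, 1 and 0 reads in WT and 12, 0 and 0 in KO. In the library of lowest depth, 0 reads allow up to 0.115 CPM, taking 3 counts as the bound from counting error alone.

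Gzmm (ENSMUSG00000054206), a granzyme that cleaves after methionine, was 18.0, 14.4 and 16.9 CPM in WT 1 to 3 and 14.2, 14.4 and 16.4 CPM in KO 1 to 3. Its libraries ranked WT 1, WT 3, KO 3 and then the other 3, an order close to that of Gzmk over a much smaller range. The log2 fold change was -0.13 with a 95% interval from -0.41 to 0.16 (edgeR adjusted p = 0.734, Benjamini-Hochberg).

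Prf1 (ENSMUSG00000037202) encodes perforin. It was 33.2, 41.7 and 41.4 CPM in WT 1 to 3 and 36.3, 45.0 and 43.5 CPM in KO 1 to 3, with the groups interleaved. The log2 fold change was 0.10 with a 95% interval from -0.17 to 0.37, and the adjusted p was 0.779 (edgeR, Benjamini-Hochberg). Perforin and Gzmc were the 2 of the 10 genes that stood higher in KO.

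The granule core and membrane genes were close in the 2 groups. Srgn (ENSMUSG00000020077), serglycin, was 420, 379 and 440 CPM in WT 1 to 3 and 390, 430 and 389 CPM in KO 1 to 3. Nkg7 (ENSMUSG00000004612), a granule membrane protein needed for degranulation, was 51.9, 68.2 and 61.0 CPM in WT 1 to 3 and 67.2, 56.9 and 54.2 CPM in KO 1 to 3. Both sets of libraries overlapped. Their 95% intervals of log2 fold change ran from -0.22 to 0.15 for Srgn and from -0.29 to 0.25 for Nkg7 (edgeR adjusted p = 0.897 and 0.962, Benjamini-Hochberg).

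Ctsw (ENSMUSG00000024910), cathepsin W, a cysteine protease of cytotoxic lymphocytes, was 269, 254 and 314 CPM in WT 1 to 3 and 200, 248 and 261 CPM in KO 1 to 3. KO 3 lay above WT 2, and KO 1 was the lowest library. Its log2 fold change of -0.24 (standard error 0.116) had an edgeR adjusted p of 0.479 by Benjamini-Hochberg, and was -0.13 without KO 1. Exons of Ctsw overlap those of Fibp in the GENCODE M21 annotation, and because the strand setting of the counting is not given in the sources used here, reads of the 2 genes may not be told apart.

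Serpinb9 (ENSMUSG00000045827), the inhibitor that shields a killer cell from its own granzyme B, was 99.2, 77.5 and 100.3 CPM in WT 1 to 3 and 63.4, 84.1 and 68.6 CPM in KO 1 to 3. Only KO 2 reached into the WT range, above WT 2. The means were 92.3 ± 12.9 CPM (WT) and 72.0 ± 10.8 CPM (KO; SD, n = 3 each), which gave a log2 fold change of -0.36 ± 0.129 (standard error). It had an unadjusted p of 0.0193 and an adjusted p of 0.392 (edgeR, Benjamini-Hochberg). The male ratio of KO to WT was 0.747 and that of the female pair 0.839, and with 1 library left out the log2 fold change ran from -0.48 to -0.27, below 0 in all 6 omissions. Of its 3442 stretches of 50 bases 13 also occur in Serpinb9b.

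Across the 10 genes 8 were lower and 2 higher in KO, where 52.8% of all tested genes were lower. The split was the same with DESeq2 size factors or library size alone, but 7 were lower by limma-voom, among the male libraries alone, without WT 2 or without KO 2, and 6 without WT 3 or without KO 3. The median log2 fold change was -0.085, beside -0.016 over all genes tested; it was -0.15 without WT 2, and -0.15 with library size alone, where all genes stood at -0.083. None of the 10 passed an adjusted p of 0.05 by the edgeR quasi-likelihood test, by DESeq2 (which called 0.488% of genes) or by limma-voom (0.0182%). At an unadjusted p under 0.05 there were 3, Gzma, Gzmk and Serpinb9, all lower, where 5.77% of all genes were called lower by that rule. This count was 1 without WT 1, without WT 3 or without KO 1, and 5 without WT 2 or with the replicate number as a block. The 1 was Gzma in each case, and the 5 added Ctsw, lower, and Gzmc, higher. With the count filter left off, edgeR called these 3 genes among 511, 1.76% of those tested. That fit of edgeR gave the dispersions an infinite prior weight, so every gene was assigned the trend's spread in place of its own, against a prior of 6.18 degrees of freedom with the filter. An exact permutation test of 3 libraries against 3 cannot go below p = 0.1.

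**Figure D2:**
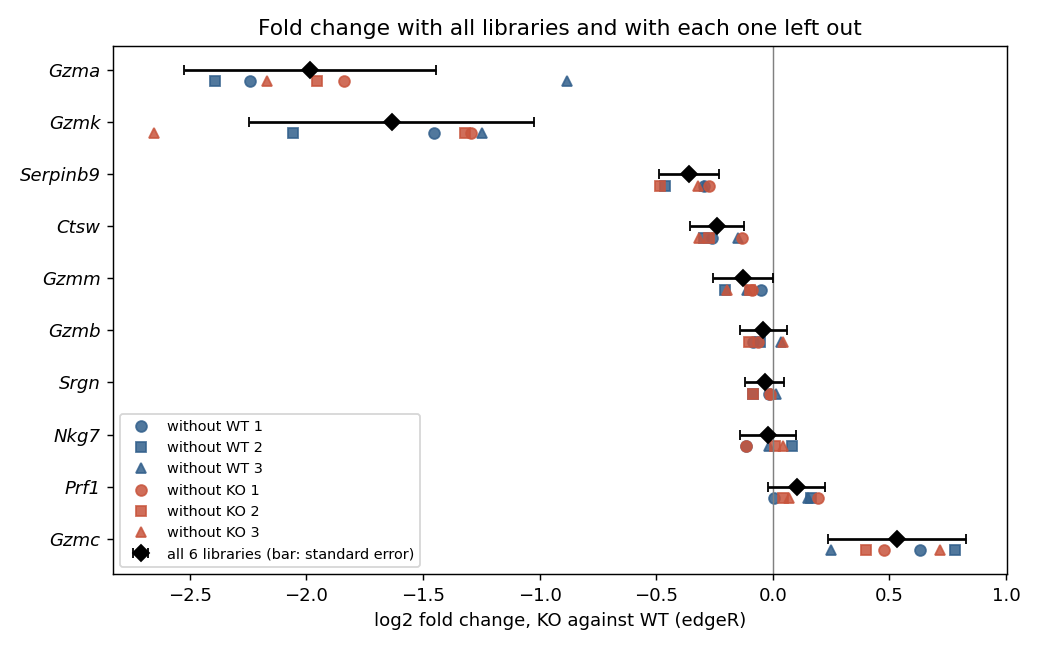
Log2 fold change of KO against WT (edgeR) for each of the 10 genes, with all 6 libraries (diamond, bar of 1 standard error) and with each library left out in turn (coloured symbols). Gzma moves from -1.98 to -0.88 without WT 3, Gzmk from -1.63 to -2.65 without KO 3, and Gzmb, Srgn and Nkg7 lie on both sides of 0.

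Scaled to exon length, the levels ordered the genes from Gzmb, through Srgn, Ctsw, Nkg7, Serpinb9, Gzma, Prf1, Gzmm and Gzmc, to Gzmk. Gzmb was 204 ± 18.2 CPM per kilobase over the 6 libraries and Srgn 186 ± 11.5 (SD, n = 6), and their ranges overlapped. Ctsw was 136 ± 19.5 and Nkg7 65.5 ± 7.42 CPM per kilobase (SD, n = 6), each below every library of the gene before it. Serpinb9 was 23.5 ± 4.41, Gzma 18.3 ± 21.2 and Prf1 15.6 ± 1.74 CPM per kilobase (SD, n = 6), and the range of Gzma overlapped both others. The place of Gzma came from WT 3: it stood above Prf1 in 2 of the 6 libraries only. Gzmm was 10.7 ± 1.08, Gzmc 6.82 ± 2.30 and Gzmk 6.26 ± 5.36 CPM per kilobase (SD, n = 6). Gzmm lay below every Prf1 value and above every Gzmc value, whereas Gzmc and Gzmk overlapped, with Gzmc above Gzmk in 3 of the 6.

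**Figure D3:**
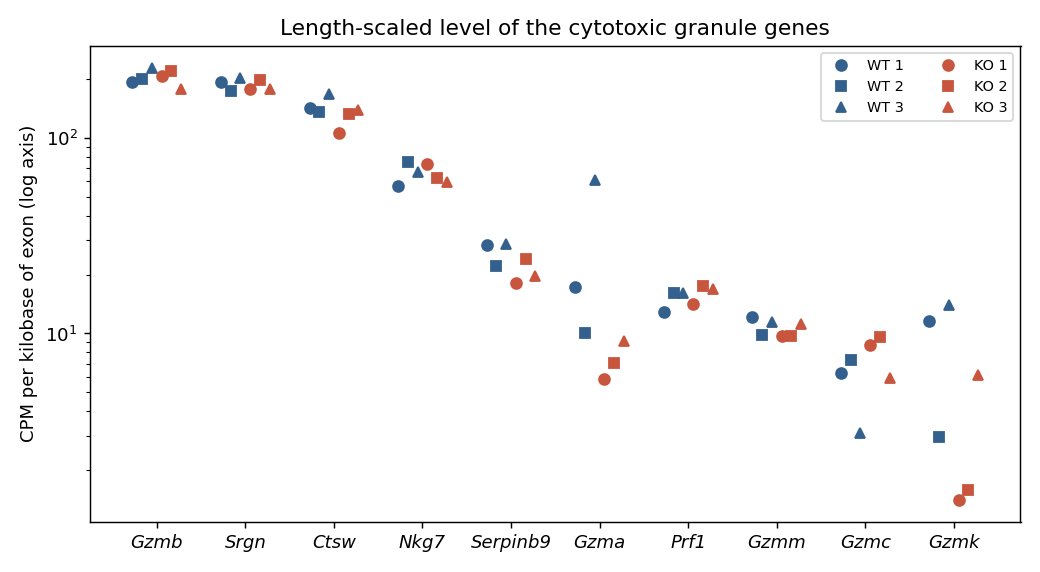
CPM per kilobase of exon (log axis) of the 10 genes in each of the 6 libraries, ordered by their mean. Gzma spans from 5.85 to 60.8 and Gzmk from 1.41 to 14.0 across libraries, while the range of Gzmb is 177 to 228.

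The libraries' own order was then compared among the genes. Over the 6 libraries the log2 level of Gzma had a Pearson r of 0.85 with Gzmk, 0.86 with Ctsw and 0.78 with Serpinb9. It had an r of -0.95 with Gzmc and of 0.40 with Gzmb. These coefficients describe 6 libraries that share 2 genotypes and, for Gzma, 1 extreme library, and no p is attached. Among 9036 named coding genes of at least 5 CPM, the 8 with the pattern most like Gzma had r from 0.98 to 0.99: Iqce, Prkab2, Gpr3, Bbs2, Prc1, Kif13b, Dsn1 and Xndc1. Prkab2, a subunit of AMP-activated protein kinase, was 13.5, 12.2 and 18.0 CPM in WT 1 to 3 and no more than 11.1 CPM in any KO library. The 8 most like Gzmb had r from 0.94 to 0.96: Ucp2, Rhbdf2, Rnf25, Fzd5, Unc119, Zfp688, Cplx3 and Cyb5r3. Ucp2, an inner mitochondrial membrane carrier, ran from 83.2 CPM in KO 3 to 101 CPM in WT 3, the lowest and highest libraries of Gzmb too.

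Several markers of effector and memory CD8 T cells had the order of Gzma and Gzmk within the WT libraries. Ccl5, Klrk1, Klrd1 and Ly6c2 of the same list did not, and Klrd1 and Ly6c2 were lowest in WT 3. Of the 15 in the list 13 were lower and 2 higher in KO (median log2 fold change -0.86), 0 of them past an adjusted p of 0.05 and 8 lower and 1 higher at an unadjusted p under 0.05 in the edgeR test, where 5.77% and 5.05% of all genes were. Klrg1, a lectin-like receptor of terminal effector cells, was 1.17, 0.559 and 3.21 CPM in WT 1 to 3 and 0, 0.0610 and 0.293 CPM in KO 1 to 3. Klrc1, the NKG2A chain, was 18.2, 13.2 and 20.4 CPM in WT 1 to 3 and 10.5, 7.75 and 6.11 CPM in KO 1 to 3. Cx3cr1, a chemokine receptor of effector cells picked after its values were seen, was 3.46, 1.18 and 12.8 CPM in WT 1 to 3 and 1.29, 0.702 and 1.81 CPM in KO 1 to 3. In all 3 genes WT 3 was highest and WT 1 next, the order Gzma and Gzmk had among the WT libraries, while the KO libraries followed no shared order. The share of all genes with this WT order was not counted. Summed B cell markers (293, 254 and 398 CPM in WT 1 to 3) and serpins related to Serpinb9 (44.7, 32.8 and 53.9 CPM) had it too. Summed CD8 T cell markers did not, at 2821, 3405 and 3020 CPM. The most abundant members were not lower in KO: Ly6c2, lowest in WT 3 at 349 CPM, had a log2 fold change of 0.30. Cxcr3, highest in KO 3 at 198 CPM, had a log2 fold change of 0.051. Its WT libraries kept the order of Gzma, at 162, 142 and 179 CPM in WT 1 to 3. The summed level of the list was 934 to 1028 CPM in WT and 922 to 1016 CPM in KO. Its largest parts were these 2 genes: Ly6c2 at means of 419 CPM (WT) and 516 CPM (KO), and Cxcr3 at 161 and 167 CPM. The sum therefore does not show the 13 lower members. The part of such cells in the Gzma and Gzmk values was not tested.

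**Figure D4:**
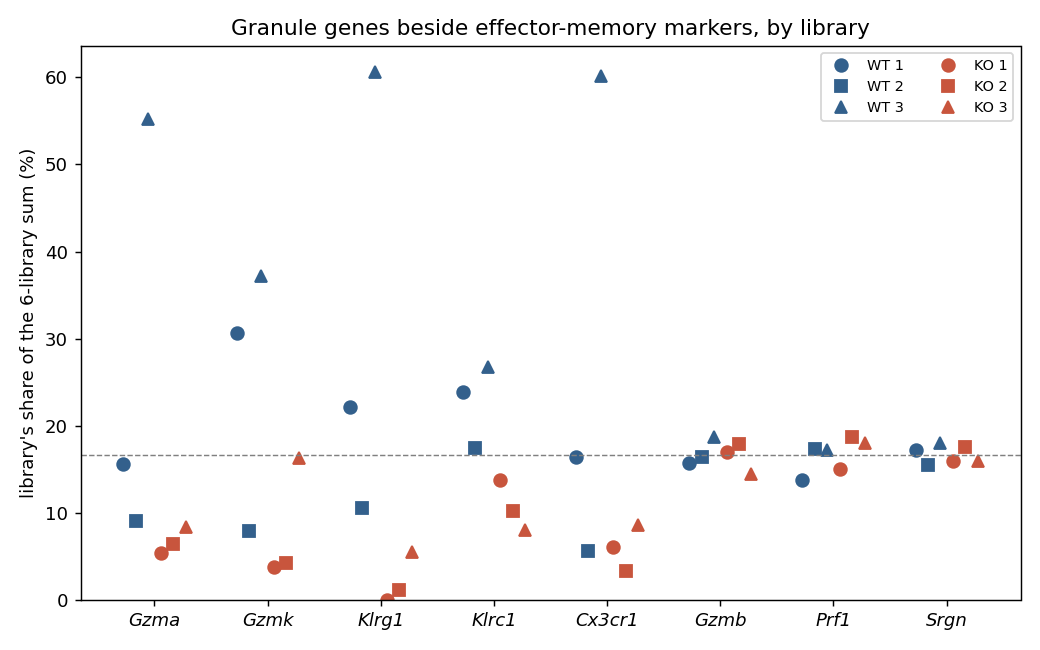
Share of the 6-library sum of CPM that each library holds, in percent, for granule genes and 3 markers of effector and memory CD8 T cells; the dashed line is an equal share. WT 3 holds 55.2% of Gzma, 37.2% of Gzmk, 60.6% of Klrg1, 26.7% of Klrc1 and 60.2% of Cx3cr1 (picked after its values were seen), and 18.7% of Gzmb, 17.2% of Prf1 and 18.0% of Srgn. Markers of the list without this WT order, such as Ly6c2 and Klrd1, are not drawn.

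Markers of other cells were measured beside them. Of 13 NK cell markers 7 were tested, 5 lower and 2 higher, with a summed level of 18.8 to 19.8 CPM in WT and 12.9 to 13.8 CPM in KO. The defining NK receptor gene Ncr1 had at most 2 reads in any library. Klre1, an NK lectin-like receptor, was 4.11 ± 0.942 CPM (WT) and 1.36 ± 0.358 CPM (KO; SD, n = 3 each), with a log2 fold change of -1.59 (edgeR adjusted p = 0.192, Benjamini-Hochberg). Of 10 myeloid and dendritic markers 8 were tested, 7 lower and 1 higher. Their sum was 383, 187 and 438 CPM in WT 1 to 3 and 172, 263 and 244 CPM in KO 1 to 3, highest in WT 3 and WT 1 as for Gzma and Gzmk, with Lyz2 at no more than 12 reads. The largest parts were Cd74 (means of 137 CPM in WT and 89.8 CPM in KO), Cst3 (119 and 80.8) and H2-Aa (58.2 and 35.7). Adgre1 had means of only 1.54 CPM in WT and 0.710 CPM in KO. All 8 B cell markers were lower, with sums of 293, 254 and 398 CPM in WT 1 to 3, also highest in WT 3 and WT 1, and 238 to 306 CPM in KO. All 6 CD4 T cell and Treg markers were lower, with sums of 43.1 to 67.6 CPM in WT and 36.4 to 50.3 CPM in KO. The most abundant of them were Ikzf2 (means of 21.3 CPM in WT and 19.0 CPM in KO) and Tnfrsf4 (15.3 and 11.3 CPM). Cd4 itself had means of 3.71 and 1.80 CPM. Gamma-delta markers summed to 6.71 to 7.56 CPM in WT and 5.22 to 6.67 CPM in KO. Mast cell and basophil markers other than Kit had at most 8 reads in any library, erythroid and platelet markers summed to at most 5.24 CPM, and all 11 CD8 T cell markers were higher in KO (median 0.19, or 0.12 without WT 1). The part of these cells in the granule gene values was not tested.

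The machinery that prepares and moves granules was followed with lists of related genes, and no member of any passed by the edgeR test adjusted over all genes. Among 7 lysosomal proteases, 2 were higher and 5 lower (median -0.14, or -0.045 without WT 3). Ctsc, the dipeptidyl peptidase that activates pro-granzymes, was 143 ± 8.82 CPM (WT) and 153 ± 29.6 CPM (KO; SD, n = 3 each). Ctsl had a log2 fold change of 0.32, with every KO library over every WT library, as for 7.8% of the genes tested, and Ctsh had -0.69. Of 21 sorting and exocytosis genes 7 were higher and 14 lower (median -0.094, or -0.041 without WT 3 and -0.16 with library size alone), and at an unadjusted p under 0.05 there were 2 higher and 4 lower, where 5.05% and 5.77% of all genes were. Sytl3, a synaptotagmin-like effector of Rab27, had a log2 fold change of 0.42, Hps4, a subunit of a complex in lysosome-related organelle formation, of -0.40, and Lyst, the regulator of granule size lost in Chediak-Higashi syndrome, of 0.29. Rab7 was 341 ± 4.88 CPM (WT) and 344 ± 5.90 CPM (KO; SD, n = 3 each).

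The 4 tested clade B serpins related to Serpinb9 were also all lower (median -0.67, or -0.40 for those averaging 5 CPM or more). Serpinb1a, an inhibitor of neutrophil-type proteases, was 8.90, 4.60 and 11.2 CPM in WT 1 to 3 and 3.02, 4.85 and 2.90 CPM in KO 1 to 3, with WT 2 among the KO libraries, and Serpinb6b had a log2 fold change of -0.37. Serpinb9b, at -0.97, stood at 2.39 CPM in WT 2 and 3.19 CPM in KO 3. Of the 4 killing ligands that act without granules 3 were lower and 1 higher (median -0.40). Fasl was 9.02, 8.08 and 10.6 CPM in WT 1 to 3 and 2.93, 6.47 and 6.85 CPM in KO 1 to 3, a log2 fold change of -0.77. Lta, lymphotoxin alpha, had -0.54 and Tnf -0.27, and in these 3 ligands the KO libraries did not reach the WT range, as for 8.65% of the genes tested.

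Of 14 transcription factors of the cytotoxic program 4 were higher and 10 lower (median -0.13, or 0.022 without KO 3, -0.079 without WT 3 and -0.20 with library size alone). Eomes, a T-box factor of cytotoxic and memory cells, was 69.3, 78.0 and 64.3 CPM in WT 1 to 3 and 104, 97.3 and 77.9 CPM in KO 1 to 3, a log2 fold change of 0.40. Id2, an inhibitor of E proteins in effector cells, was 42.7, 29.7 and 46.6 CPM in WT 1 to 3 and 26.2, 26.7 and 27.2 CPM in KO 1 to 3, a log2 fold change of -0.57. Again WT 3 and WT 1 were the high libraries for Id2. Runx3 had a log2 fold change of 0.15 and Stat5b of 0.21. Among 11 receptors for inducing cytokines 7 were higher and 4 lower, with a median of 0.047 that was -0.019 with library size alone, -0.027 without KO 2, 0.12 without WT 1, 0.16 without KO 1, 0.029 without WT 2 and 0.079 without WT 3. Among the male libraries alone the medians were -0.063 for the proteases, -0.069 for the transcription factors and 0.0065 for these receptors. The IL2 receptor chains Il2rb and Il2rg had log2 fold changes of 0.037 and 0.22, and Il21r of 0.35. The edgeR adjusted p of the named factors and receptors was between 0.333 (Id2) and 0.914 (Il2rb) by Benjamini-Hochberg.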

How the data were processed

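Read counts per Ensembl gene, not normalized, were deposited by the authors as 1 table with a column for each of the 6 samples, and the submitters' processing notes name HISAT2, Subread with featureCounts, and GRCm39. Their versions, the annotation release and the strand and multi-mapping settings were not stated there. Symbols came from GENCODE M21 on GRCm38 by exact identifier (52029 of 57010), as did exon lengths, so no coordinates of the counts are given. Promoter sequences are RefSeq's on GRCm38.p6.

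Genes were kept by filterByExpr (minimum count 10, minimum total 15), scaled by TMM and tested with edgeR 4.0.16 in R 4.3.3 (glmQLFit, glmQLFTest, two-sided, group only), with Benjamini-Hochberg adjustment over 16439 genes at 0.05. Standard errors are the absolute log2 fold change over the square root of F, and intervals are at 95%. Log2 levels used a prior count of 2. DESeq2 1.42.0 and limma 3.58.1 (voom with sample weights) were alternatives. The procedure was tested on simulated counts. It recovered 60% of the genes changed by a log2 fold change of 0.75 and 97.5% of those changed by 1, with 6 false calls. Every simulated gene was given the same dispersion, so the outcome does not cover genes as variable as Gzma, Gzmk and Gzmc. No 2 libraries of a group matched within sampling noise.

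The 10 genes and 17 further lists were chosen with earlier results of these data known. Genes named from a list were limited to its 2 of smallest p and 2 of highest level, with every other granzyme, and for Gzma and Gzmb the 8 of most similar pattern. Cx3cr1, Ccl5, Klrk1, Klrd1, Lyz2, Ncr1, Xist and Fibp fall outside this rule and were picked after their values were seen. Vamp7 was not matched by symbol.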

Additional observations from a re-analysis of the deposited data

How the results depend on the processing

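Among the alternative values of the 10 log2 fold changes, 139 kept their direction and their side of the threshold, 8 changed sign and 3 (Gzma, Gzmk and Serpinb9 without a filter on low counts) passed. Those that changed sign were near 0: Nkg7 was 0.016 by limma-voom and 0.017 with the male libraries only, and with 1 library left out Nkg7 ran from -0.12 to 0.084, Gzmb from -0.10 to 0.044 and Srgn from -0.086 to 0.012. The number of genes called was 2 in the reported fit, 142 by DESeq2, 511 without a filter on low counts, 6 with a term for sex, and from 2 to 80 with 1 library left out (80 without KO 3). The members called were 0 throughout, except 3 without a filter. The cause of these differing counts was not tested, and the infinite prior weight was only seen beside the count of 511. The sex term and the male-only fit were added after seeing the data. The replicate number as a block gave 2 genes called and 0 members. Deviations of same-numbered libraries from their group mean over 9866 genes had r of 0.082, -0.53 and -0.18. These values cannot decide whether a shared number marks a shared litter or day, because the 3 deviations of each group sum to 0. No library correlated best with its own number: the best matches were WT 1 with KO 3 (0.29), WT 2 with KO 1 (0.56) and WT 3 with KO 2 (0.69). Each of these matches joined libraries of the same sex, and WT 3 and KO 2 were the female libraries. Of the 8 genes most like Gzma in pattern 6 were kept when only library size was scaled, and 7 of the 8 most like Gzmb. Depth limits Gzmc and Gzmk most, at as few as 75 and 61 reads in a library.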
